A study of Mus musculus with 4 samples.

Results

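The genes described here encode proteins of the acrosome, the secretory cap over the sperm nucleus, and proteins that act when sperm and egg meet. They were chosen by name from a list of 38 symbols, of which 37 were found among the 50600 gene models of the deposited files. All 37 are protein-coding in RefSeq. The symbol Equatn was found neither among the models nor among RefSeq synonyms, while Eqtn, the mouse gene of equatorin, was found. A model named Gm26657, which RefSeq lists as a synonym of Actl7b, was at 0 counts in all 4 libraries and is not counted among the 37. Every model of the 37 had counts in IgG replicate 1, and 35 had counts in LARP7 replicate 2, the library where the fewest were seen.

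RNA immunoprecipitation (RIP) uses antibody-coated beads to collect a protein from lysed tissue, and the RNA that comes along is sequenced. The libraries were made from testes of C57BL/6 mice aged 8 weeks, 2 with an antibody to LARP7 and 2 with a non-specific IgG, and no other treatment or allele is named for either group. They were built with a small RNA kit from inserts of 15 to 300 nt, so an mRNA is seen here as short pieces and not as a full transcript. The labels number the replicates without saying whether they came from separate animals, so the p-values cover only how far libraries of a group lay apart, possibly for technical reasons alone.

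LARP7 is a La-related protein known for binding the 3' ends of small non-coding RNAs made by RNA polymerase III, 7SK above all. The acrosome forms from the Golgi apparatus in round spermatids and flattens over the nucleus as the cell elongates. Its contents are released before the sperm crosses the egg coat, and proteins of the inner acrosomal membrane and of the equatorial band then take part in fusion. Many of its mRNAs are made in round spermatids.

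The question was how mRNAs of this structure behaved in the LARP7 pull-down against the IgG background. Libraries held 4411271 to 6994514 expected counts, and the 37 models together held 1387 and 1063 of these in LARP7 replicates 1 and 2, and 10322 and 4198 in IgG replicates 1 and 2. As a share of all counts this is 0.0182% ± 0.00269 in LARP7 and 0.122% ± 0.0373 in IgG libraries (SD, n = 2 each), a ratio of 6.68. Protein-coding genes as a whole took a smaller share of the LARP7 libraries, so the members were also set against protein-coding counts alone. They made up 0.107% ± 0.038 of these with LARP7 and 0.299% ± 0.0707 with IgG (SD, n = 2 each), a ratio of 2.79. In both measures the LARP7 libraries lay below both IgG libraries; no test was made, since 2 libraries against 2 cannot give an exact permutation p below 0.333.

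Gene by gene, 36 of the 37 had enough counts to be tested, and 18 of these were lower and 1 higher in the LARP7 libraries. The filter asked for enough counts in any 2 libraries. Members with few LARP7 counts, such as Spam1, Eqtn and Spaca9, passed it through the IgG libraries alone. Such genes could hardly be called higher, and the same filter was used for all genes. Calls are at an adjusted p under 0.05 in edgeR's quasi-likelihood test, with scaling by the trimmed mean of M values (TMM). Over all 12234 genes tested, 9.69% were called lower and 14.5% higher. Among the 3400 tested protein-coding genes of like count and length, which span the members' 10th to 90th percentile of both, 16.0% were lower and 8.15% higher. The median log2 fold change (log2FC, LARP7 over IgG) was -1.52 for the members, -0.47 for the genes of like count and length, and -0.05 for all genes. The fold change was negative for 34 of the 36, and for 64.2% of the genes of like count and length. In CPM (counts scaled to a common TMM-adjusted library size), both LARP7 libraries lay below both IgG libraries for 31 of the 36, against 35.6% of all tested genes and 46.8% of those of like count and length. They lay above for 2, Izumo4 and by a narrow margin Actl9, against 32.9% of all tested genes.

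The size of each fold depends on the scaling. Scaling by library totals moved the median of all genes by 1.42 on the log2 scale, to -1.47, and that of the members to -2.98. With it 35 of the 36 were called lower and 0 higher (0 also at an unadjusted p under 0.05), against 47.1% and 3.95% of all genes. Of the 3400 protein-coding genes of like count and length, 2180 were then lower and 26 higher. The members' median minus that of all genes was -1.47 with TMM and -1.51 with library totals. A change of scaling shifts all genes by nearly the same amount, so this difference was bound to stay close. Taken against the genes of like count and length, the difference was -1.05 with TMM. With DESeq2 11 members were lower and 1 higher, where 5.96% and 14.0% of all genes were; without a filter on low counts it was 18 and 1, where 5.13% and 7.56% of all genes were. The number of calls also rests on single libraries: 14 members were lower without LARP7 replicate 1, 1 without LARP7 replicate 2, 5 without IgG replicate 1 and 14 without IgG replicate 2, where 6.29%, 1.38%, 6.28% and 6.32% of all tested genes were lower. Izumo4 was called higher without either LARP7 replicate, with 9.70% and 4.62% of all genes higher, and was not without either IgG replicate, with 12.2% and 15.2%. The median of the members stayed between -1.87 and -1.32 in these 4 fits.

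**Figure D1:**
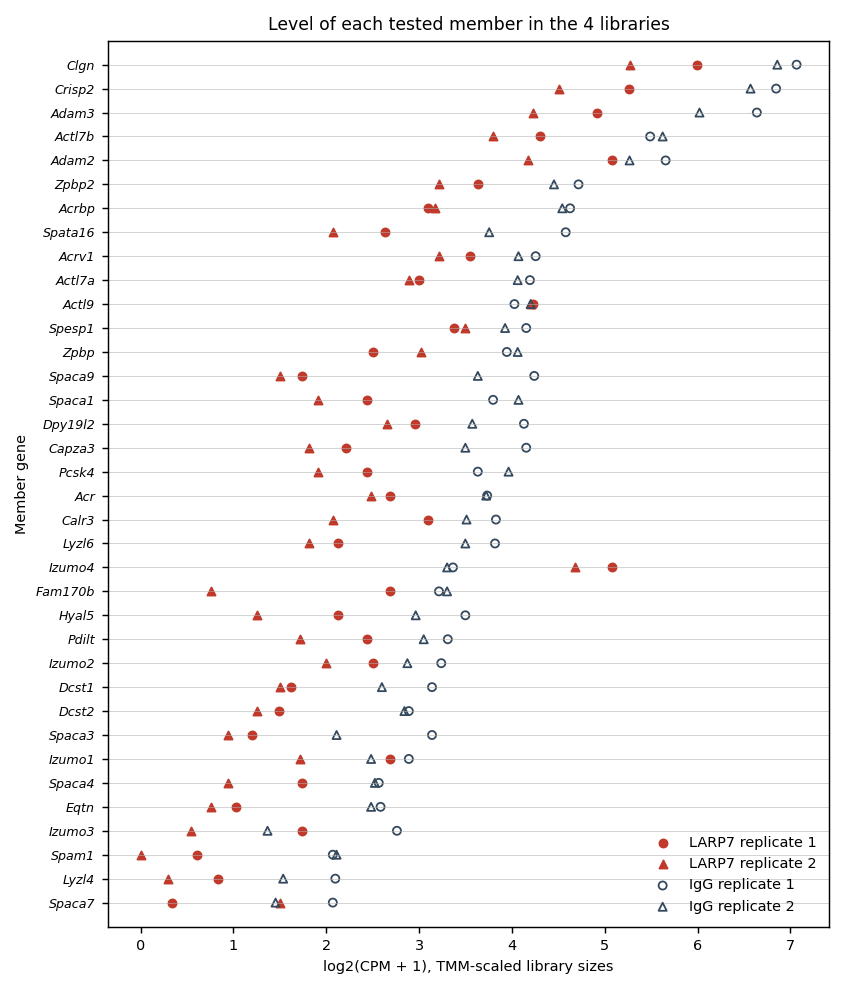
Level of each of the 36 tested members in each library, as log2(CPM + 1) with TMM-scaled library sizes; filled red marks are the LARP7 libraries, open dark marks the IgG libraries, and genes are ordered by their mean IgG level. For 31 genes both red marks lie left of both open marks, and Izumo4 has both red marks to the right.

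The mRNAs listed for matrix proteins and enzymes of the acrosome were mostly lower with LARP7. All 14 of these genes had negative fold changes, and the median log2 fold change was -1.69. Of the 14, 9 were called lower and 0 higher, against 9.69% and 14.5% of all tested genes. For protein-coding genes of like count and length these shares were 16.0% and 8.15%. Spam1 encodes the hyaluronidase PH-20, which helps sperm through the layer of cumulus cells; it had 2 and 0 counts in the LARP7 libraries against 41 and 21 with IgG. In the test its log2FC was -3.63 (SE 1.11, edgeR adjusted p = 0.0344). The fold change was -7.69 without LARP7 replicate 1 and -2.61 without LARP7 replicate 2. Its TMM-scaled ratio of IgG to LARP7 counts was 13.3, with a 95% exact counting interval of 3.53 to 112. That interval pools the libraries of each group, so it leaves out the spread between libraries. Hyal5, a second sperm hyaluronidase on chromosome 6 beside it, had 13 and 6 counts against 132 and 43 (log2FC -1.86, SE 0.59, edgeR adjusted p = 0.0422). Both hyaluronidase genes were thus lower in each LARP7 library than in either IgG library.

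The lysozyme-like genes encode acrosomal relatives of lysozyme. Spaca3 had 5 and 4 counts with LARP7 and 100 and 21 with IgG (log2FC -2.34, SE 0.72, edgeR adjusted p = 0.0366). Lyzl6 had 13 and 11 counts against 168 and 65, a fold change of -1.99 (SE 0.49, edgeR adjusted p = 0.0188). The third, Lyzl4, had a similar size of difference, 3 and 1 counts against 42 and 12, but did not pass the test (-2.37, SE 0.95, edgeR adjusted p = 0.0854). Its RefSeq span holds the antisense-named lncRNA Lyzl4os, whose counts were 6, 2, 15 and 13 in the same order.

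Proteases and their partners followed. Acr encodes acrosin, the serine protease by which the acrosome is best known, and had 21 and 20 counts against 158 and 77; at -1.29 (SE 0.44) it missed the threshold narrowly (edgeR adjusted p = 0.0559). Acrbp, whose product binds the acrosin precursor, had 29 and 35 counts against 303 and 141, or 7.78 ± 0.351 CPM against 23.0 ± 0.963 (SD, n = 2 each). It was 2.95-fold lower with LARP7 (log2FC -1.56, SE 0.40, edgeR adjusted p = 0.0212). Pcsk4, a proprotein convertase of male germ cells, had 17 and 12 counts against 146 and 92 (-1.85, edgeR adjusted p = 0.0229).

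Crisp2, a cysteine-rich secretory protein of acrosome and tail, had the highest level of all members by transcript length in the IgG libraries, at 14.61 and 6.06 TPM (transcript level scaled for length and library). It had 143 and 95 counts with LARP7 and 1458 and 594 with IgG, which is 29.5 ± 10.9 CPM against 104 ± 14.1 (SD, n = 2 each; log2FC -1.82, SE 0.51, edgeR adjusted p = 0.0275). The paired genes for zona pellucida binding proteins, Zpbp and Zpbp2, changed by like amounts. Zpbp had 18 and 31 counts against 184 and 99 (-1.34, SE 0.44, edgeR adjusted p = 0.0487). Zpbp2 had 44 and 36 against 324 and 132 (-1.23, SE 0.40, edgeR adjusted p = 0.0471). Neither call was kept with DESeq2 (DESeq2 adjusted p = 0.119 for Zpbp and 0.106 for Zpbp2). Acrv1, which encodes the acrosomal vesicle protein SP-10, had 40.9 and 35.9 expected counts against 232 and 99.8 and was not called (-0.85, edgeR adjusted p = 0.149). Spesp1 (-0.66) and Spaca7 (-1.22) were not called either; Spaca7 had 61 counts in all, and its groups overlapped.

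Genes for membrane proteins and gamete fusion spread the widest. Of 10 models, 9 were tested, with 3 lower, 1 higher and a median log2 fold change of -1.58. Over all tested genes, 9.69% were lower and 14.5% higher. For protein-coding genes of like count and length these shares were 16.0% and 8.15%. Spaca1, a protein of the inner acrosomal membrane, had 17 and 12 counts with LARP7 against 165 and 100 with IgG (log2FC -2.00, SE 0.48, edgeR adjusted p = 0.0170). Eqtn, equatorin of the equatorial segment, had 4 and 3 counts against 64 and 29 (-2.46, SE 0.71, edgeR adjusted p = 0.0298). For both genes the LARP7 libraries lay well below either IgG library.

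Dcst1 and Dcst2 encode a pair of membrane proteins needed for fertilisation, and their RefSeq spans on chromosome 3 overlap (89350219 to 89365253 and 89350417 to 89377643). Whether the counting used strand is not given in the sources used here, so reads in the overlap may be shared. Dcst2 had 7 and 6 counts against 82 and 39 and was lower (log2FC -1.97, edgeR adjusted p = 0.0355). Dcst1 had 8 and 8.02 against 100 and 32 and just missed the threshold (-1.72, edgeR adjusted p = 0.0528). Spaca4 (-1.58, edgeR adjusted p = 0.104) lies within the span of Fam83e, a gene that was itself lower (-3.02, edgeR adjusted p = 0.0300). Tmem95, a sperm membrane protein needed for fusion, had 3 counts in IgG replicate 1 and 0 in the other 3 libraries, too few for a test or a fold.

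The 4 Izumo genes gave differing values, and the differences between them were not tested. Izumo1 encodes the sperm protein that binds the receptor JUNO on the egg, and had 21 and 10 counts with LARP7 against 82 and 29 with IgG (log2FC -0.52, SE 0.59, edgeR adjusted p = 0.529). Izumo2 and Izumo3, its relatives, had fold changes of -0.96 (SE 0.52) and -1.45 (SE 0.90), with edgeR adjusted p of 0.192 and 0.254. The CPM of Izumo1 and Izumo3 overlapped between the groups.

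Izumo4 went the other way. This gene encodes the family member that lacks a membrane anchor. It had 126 and 107 expected counts in the LARP7 libraries and 119 and 55.9 in the IgG libraries. On the CPM scale these are 32.7 and 24.6 against 9.30 and 8.86, and the groups did not overlap. The gene was 3.15-fold higher with LARP7 (log2FC 1.65, SE 0.39, edgeR adjusted p = 0.0167). Among the members it ranked first by TPM in the LARP7 libraries, with 0.54 and 0.77 TPM, and 17 by TPM in the IgG libraries, with 1.62 and 0.93 TPM. Of the protein-coding genes of like count and length, 7.21% had a fold change at least as high. The rise was relative to other RNAs: with library totals it was 0.21 (adjusted p = 0.748). With limma on log2(TPM + 1) its direction turned, to -0.45 (adjusted p = 0.263), and the adjusted p lay between 0.00830 and 0.748 over all alternatives. The log2FC was 1.69 (adjusted p = 0.0636) without IgG replicate 1 and 1.68 (adjusted p = 0.0616) without IgG replicate 2.

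Izumo4 lies on chromosome 10, from 80702015 to 80705382, between 2 genes that went opposite ways. Mob3a, a kinase-activator gene, lies 194 nt away at lower coordinates. It had 64 and 140 counts with LARP7 and 34 and 23 with IgG, and rose (log2FC 2.97, SE 0.49, edgeR adjusted p = 0.00527). Ap3d1, an adaptor complex subunit, lies 1573 nt away at higher coordinates. It had 57 and 47 counts against 512 and 216, and fell (-1.54, SE 0.40, edgeR adjusted p = 0.0224). These positions are by coordinate and do not give the direction of transcription. Mob3a was also called higher with library totals (1.60, adjusted p = 0.0130), and not with limma on log2(TPM + 1) (0.09, adjusted p = 0.655); its adjusted p lay between 1.11e-06 and 0.655 over the alternatives. These neighbours were looked up after the values of Izumo4 were seen. The counts of Izumo4 are not whole, which in RSEM comes from reads that fit several models; the posterior SD of its estimated count was at most 4.20 counts, or 0.0385 of the count. Whether reads from outside its exons enter its count was not tested.

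**Figure D2:**
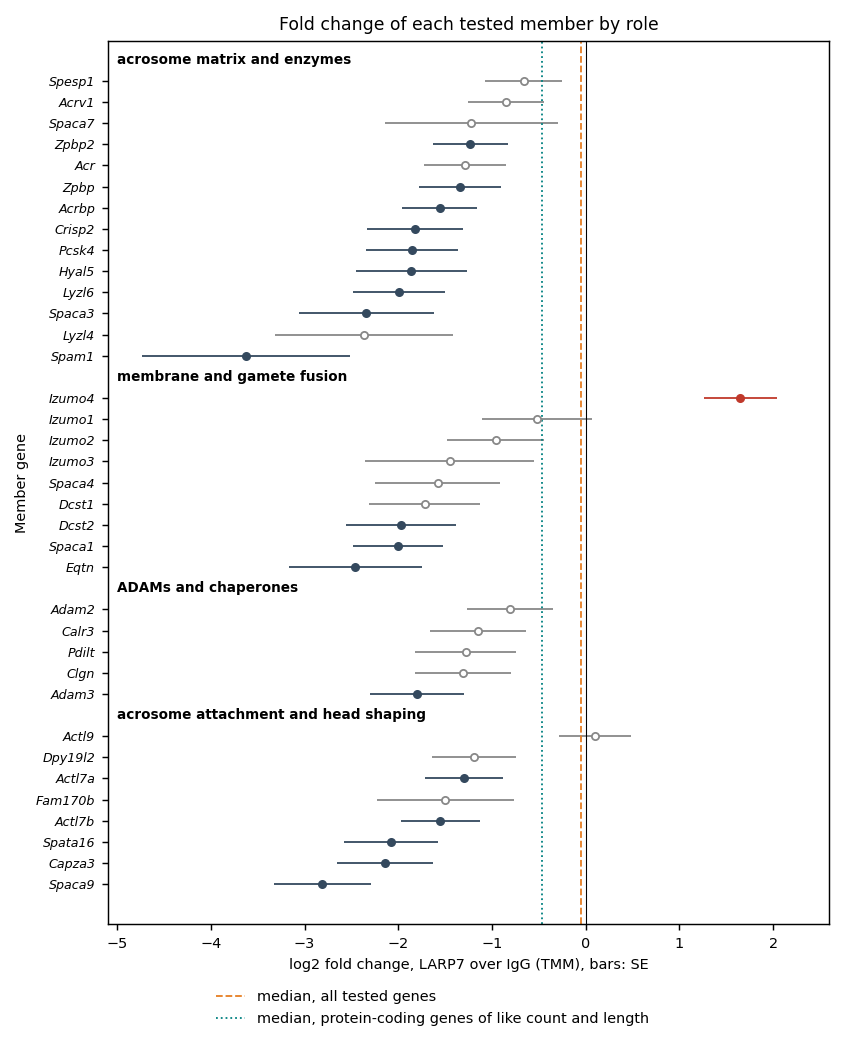
Log2 fold change of LARP7 over IgG for each tested member, with TMM scaling and bars of 1 SE, grouped by role; filled dark points were called lower, the filled red point higher, and open points were not called. Of 36 points, 34 lie left of both background medians, at -0.05 for all tested genes and -0.47 for protein-coding genes of like count and length, and the exceptions are Izumo4 at 1.65 and Actl9 at 0.10, whose sign turns with library totals.

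Surface proteins of the ADAM family reach the sperm membrane with the help of chaperones in the endoplasmic reticulum, and the 5 genes of this route were all tested. All had negative fold changes, with a median of -1.28, but only Adam3 was called lower. Of all tested genes 9.69% were lower, and of the protein-coding genes of like count and length 16.0%. Adam3, whose product is needed for binding to the zona pellucida, had 112 and 77 counts with LARP7 against 1262 and 404 with IgG, or 23.4 ± 8.08 CPM against 81.2 ± 24.5 (SD, n = 2 each; log2FC -1.80, SE 0.50, edgeR adjusted p = 0.0275). Adam2, the fertilin beta subunit, had 126 and 74 counts against 632 and 237 and was not called (-0.81, SE 0.46, edgeR adjusted p = 0.212). Clgn encodes calmegin, the chaperone for fertilin, and had the most counts of all members, 242 and 164 against 1707 and 727. At -1.31 (SE 0.51) it missed the threshold (edgeR adjusted p = 0.085), although both LARP7 libraries, at 62.9 and 37.6 CPM, lay below both IgG libraries, at 133 and 115 CPM. The other two chaperone genes, Calr3 and Pdilt, had -1.15 and -1.28 and were not called.

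The group listed under acrosome attachment and head shaping held 8 members, with a median of -1.52. Of these, 5 were lower and 0 higher, against 9.69% and 14.5% of all tested genes. For protein-coding genes of like count and length these shares were 16.0% and 8.15%. Spaca9 was placed in this group by the list, and whether its protein takes part in either process was not tested. Spaca9 had 9 and 8 counts with LARP7 and 229 and 72 with IgG, which is 2.09 ± 0.355 CPM against 14.6 ± 4.59 (SD, n = 2 each). It was 7.02-fold lower (log2FC -2.81, SE 0.52, edgeR adjusted p = 0.00791), and was the single member called lower in each of the 4 fits that leave out a library. Its RefSeq span overlaps that of Ak8, which was not called (-1.07, edgeR adjusted p = 0.115). Capza3, an actin capping subunit of germ cells, had 14 and 11 counts against 215 and 65 (-2.14, SE 0.51, edgeR adjusted p = 0.0165). Spata16, a Golgi protein required for acrosome formation, had 20 and 14 counts against 293 and 79 (-2.08, SE 0.50, edgeR adjusted p = 0.0175).

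Fam170b (-1.50, edgeR adjusted p = 0.156) was not called; its LARP7 libraries lay far apart, with 21 and 3 counts. Dpy19l2, an inner nuclear membrane protein whose loss detaches the acrosome, had -1.19 and was not called (edgeR adjusted p = 0.0758). Its span holds the short gene Cypt4, which was lower (-2.23, edgeR adjusted p = 0.0165).

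The actin-like genes Actl7a, Actl7b and Actl9 encode related proteins of the perinuclear theca, the layer between acrosome and nucleus, and all 3 are intronless in RefSeq. Their values differed. Actl7b had 72 and 56 counts with LARP7 against 562 and 305 with IgG (log2FC -1.55, SE 0.42, edgeR adjusted p = 0.0260). Its neighbour Actl7a had 27 and 28 against 222 and 99 (-1.30, SE 0.42, edgeR adjusted p = 0.0452). The call of Actl7a was not kept with DESeq2 (DESeq2 adjusted p = 0.108). Actl9 had 68 and 76 counts against 196 and 110, or 17.6 ± 0.161 CPM against 16.4 ± 1.48 (SD, n = 2 each). With TMM scaling it did not pass the test (0.10, SE 0.38, edgeR adjusted p = 0.859), but its sign follows the scaling: it was -1.30 with library totals and then called lower (adjusted p = 0.0217). Its adjusted p ranged from 0.0217 to 0.991 over all alternatives. The differences between these genes were not tested. The other intronless members, Capza3 and Spaca4, lay with the rest, and the 5 intronless members had a median of -1.55 against -1.50 for the 31 with introns.

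The DNA before the starts of these genes was also examined, a property that the rule did not use and the pull-down does not measure. The sequences below are the 250 bases upstream of the RefSeq start (build GRCm38.p6, from the RefSeq promoter table) of the 3 actin-like genes and of Spam1, shown because each holds the same 8 letters. Capitals mark TGATGTCA or its reverse complement TGACATCA, letters close to the cAMP response element TGACGTCA, through which the activator CREM works in spermatids.
Actl7a, chr4:56743172-56743421, plus strand: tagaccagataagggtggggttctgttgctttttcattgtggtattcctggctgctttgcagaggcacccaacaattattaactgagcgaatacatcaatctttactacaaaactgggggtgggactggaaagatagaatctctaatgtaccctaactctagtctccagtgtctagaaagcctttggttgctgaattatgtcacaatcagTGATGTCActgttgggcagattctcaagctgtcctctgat
Actl7b, chr4:56741426-56741675, minus strand: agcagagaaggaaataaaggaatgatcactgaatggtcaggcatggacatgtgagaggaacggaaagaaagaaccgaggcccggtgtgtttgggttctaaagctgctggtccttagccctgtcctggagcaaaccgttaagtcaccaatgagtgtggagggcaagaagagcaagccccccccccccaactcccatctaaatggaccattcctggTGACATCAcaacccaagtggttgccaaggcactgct
Actl9, chr17:33432649-33432898, plus strand: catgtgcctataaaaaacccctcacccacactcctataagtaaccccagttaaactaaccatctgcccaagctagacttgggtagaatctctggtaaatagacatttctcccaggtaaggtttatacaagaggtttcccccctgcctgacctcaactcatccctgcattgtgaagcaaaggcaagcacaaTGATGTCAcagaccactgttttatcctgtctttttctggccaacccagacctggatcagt
Spam1, chr6:24790938-24791187, plus strand: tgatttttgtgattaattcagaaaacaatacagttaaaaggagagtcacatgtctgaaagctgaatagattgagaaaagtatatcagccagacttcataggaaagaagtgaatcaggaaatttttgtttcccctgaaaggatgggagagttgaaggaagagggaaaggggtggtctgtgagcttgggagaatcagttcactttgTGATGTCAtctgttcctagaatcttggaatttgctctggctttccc

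The first marked base lies 40, 36, 60 and 46 nt before the start in these 4 genes, in the order shown, and each of these starts is the first base of the gene's RefSeq span. Of 34 upstream windows of 29 member genes in the table (some genes have several starts), 8 held the letters TGATGTCA on either strand, 23.5%, against 2.93% of all 32851 windows. The other genes with it were Fam170b, Lyzl6, Spaca7 and Hyal5. The table's start for Hyal5 lies 60 nt inside its RefSeq span, so its window is not all upstream of the gene and is not printed. The motif was searched after it was seen in the actin-like genes, so the share is a description. The element TGACGTCA itself was in 1 member window, that of Izumo1 (2.94%, against 1.55% of all), and TATAAA was in 3, those of Actl9, Crisp2 and Spaca7 (8.82% against 12.4%). In the pull-down, the 8 genes with TGATGTCA had a median log2 fold change of -1.52, from -3.63 to 0.10. The 20 tested members with a window but without these letters had -1.50, from -2.81 to -0.52. Izumo4 (1.65) had no window and is in neither group.

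Other genes of fertilisation were taken from a separate list. Of 42 tested, 10 were lower and 0 higher, with a median log2 fold change of -1.33, against 9.69% lower and 14.5% higher over all genes. Of protein-coding genes with count and length like the members', 16.0% were lower and 8.15% higher. Among those lower were Spaca6, needed for gamete fusion, with 3 and 13 counts with LARP7 against 71 and 77 with IgG (-2.19, edgeR adjusted p = 0.0430), and 1700034O15Rik, which RefSeq names Llcfc1, a fusion factor, with 2 and 4 against 78 and 40 (-3.06, edgeR adjusted p = 0.0139). The ADAM genes Adam1a, Adam1b, Adam18 and Adam32 were lower too, at -1.46, -2.12, -1.47 and -1.66. Lypd4, Sppl2c, Dkkl1 and Ace had -2.05, -1.56, -1.34 and -1.32 and completed the 10. Of the 42, 37 had negative values. The 5 with positive values were Cd9 (1.29), Tex101 (1.14), Csnk2a2 (0.93), Gopc (0.33) and Tmem81 (0.27); none of these 5 was called, and all 5 were negative with library totals. Tex101 is also in the spermatocyte list.

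The direction was shared with spermatid mRNAs of other functions. Of 18 such mRNAs for chromatin, tail and kinases, 13 were lower and 0 higher, with a median of -1.79. Over all tested genes, 9.69% were lower and 14.5% higher. Of protein-coding genes with count and length like the members', 16.0% were lower and 8.15% higher. Prm1, the protamine that packs sperm DNA, had 50 and 41 counts against 782 and 368 (-2.41, edgeR adjusted p = 0.00791), and Akap4 of the fibrous sheath had 170 and 129 against 1949 and 673 (-1.81, edgeR adjusted p = 0.0301). No difference between these lists and the acrosome genes was tested. Summed over the list, these spermatid mRNAs had 519 to 818 CPM with LARP7 and 2090 to 2180 CPM with IgG.

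Markers of other testis cells were compared in the same way, beside 9.69% called lower and 14.5% called higher over all tested genes. The 8 spermatocyte markers summed to 144 to 164 CPM with LARP7 and 140 to 152 CPM with IgG, and of 7 tested, 0 were called by edgeR (at an unadjusted p under 0.05, 1 higher and 1 lower). The 6 Leydig cell markers summed to 45.5 to 50.1 CPM against 48.1 to 52.2 CPM, with a median fold change of -0.09 and 0 called by edgeR (0 higher and 0 lower unadjusted). Of 5 Sertoli markers tested, all 5 had negative values, with a median of -1.22, and Wt1 was called lower (-2.05, edgeR adjusted p = 0.0448). The list summed to 34.2 to 45.7 CPM against 71.3 to 80.5 CPM. Of 6 spermatogonial markers tested, Zbtb16 (2.49) and Sall4 (3.31) were higher (edgeR adjusted p of 0.0168 and 0.0368), and the list summed to 19.2 to 26.9 CPM against 12.1 to 12.9 CPM; with library totals 0 were higher, 1 was lower and the median turned from 0.82 to -0.58. The peritubular, vascular and blood list had 3 genes tested and 0 called by edgeR (0 higher and 0 lower unadjusted), at 15.3 to 21.5 CPM against 10.7 to 20.9 CPM. No marker of these lists was at 0 counts in all libraries. Both groups were pull-downs from whole testes, with no library of the RNA before the pull-down. These sums therefore do not measure the number of cells of a type or the RNA per cell. The part of these cell types in the result was not tested.

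**Figure D3:**
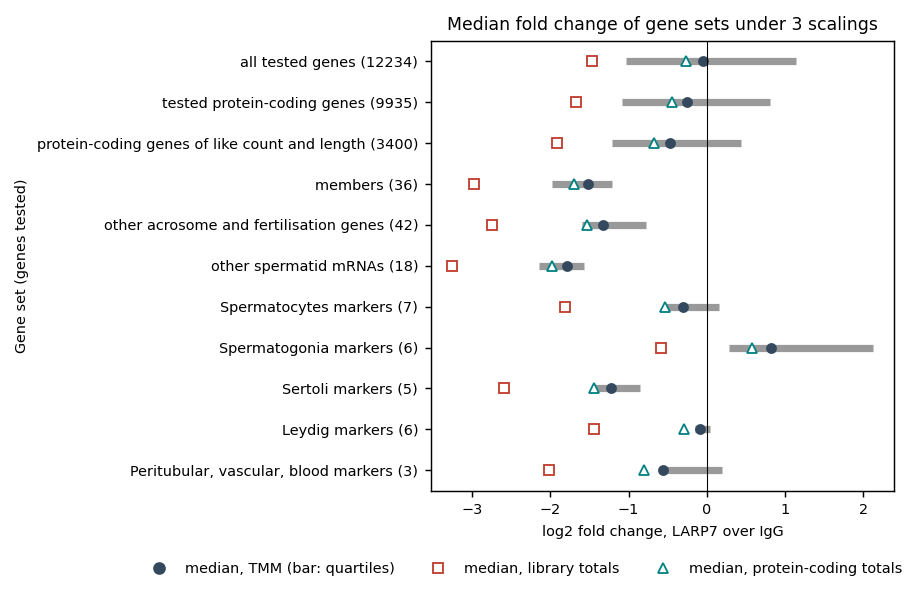
Median log2 fold change of LARP7 over IgG for gene sets, with the number of genes tested in brackets; filled circles use TMM with bars from the lower to the upper quartile, squares use library totals and triangles protein-coding totals. The members, at -1.52 with TMM, lie with the other acrosome genes (-1.33), the other spermatid mRNAs (-1.79) and the Sertoli markers (-1.22), and each scaling moves all sets together.

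Among the members themselves, the fold change was set against length and level as a description. Across the 36 tested genes, which share libraries and scaling, Pearson's r was 0.098 between fold change and log2 model length, and 0.34 between fold change and average log2 CPM. Per transcript length, the order of levels in the IgG libraries began with Crisp2 (14.61 and 6.06 TPM), Adam3 (8.88 and 3.48 TPM), Clgn (8.44 and 3.68 TPM), Actl7b (5.40 and 3.04 TPM) and Acrbp (5.19 and 2.68 TPM), and the ranges of neighbours in this order overlapped. In the LARP7 libraries Izumo4 came first, followed by Crisp2 (0.36 and 0.49 TPM), Clgn (0.28 and 0.38 TPM) and Actl9 (0.18 and 0.37 TPM), again with overlapping ranges from Crisp2 on.

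**Figure D4:**
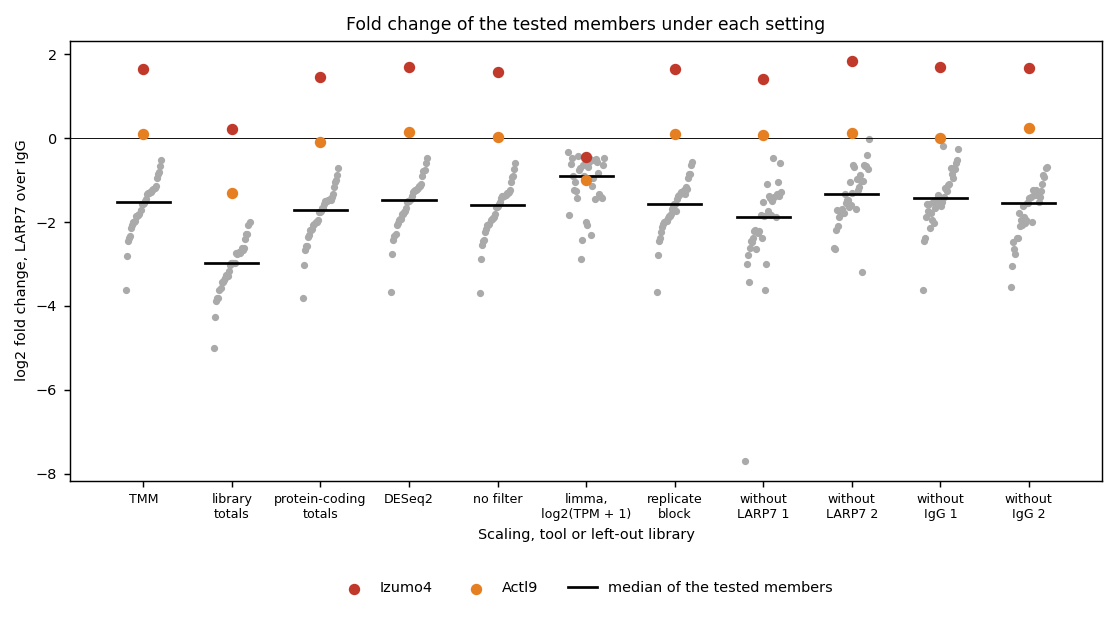
Log2 fold change of each of the 36 tested members under each scaling, tool or left-out library; grey points are single genes, the black line is their median, and Izumo4 and Actl9 are coloured. Izumo4 is above the other members in each column, from 1.85 without LARP7 replicate 2 down to 0.21 with library totals, apart from limma on log2(TPM + 1), where it is at -0.45 among others.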

How the data were processed

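Expected counts (estimated counts per gene model, in which RSEM splits multiply mapping reads) and TPM were deposited by the authors for 4 libraries; RSEM, Bowtie2, cutadapt and the mm10 build are named per the submitters' processing notes, while their versions, settings and strand handling were not stated there. Other deposited columns used were model length and the posterior SD of the count. TPM divides by effective length and was used for levels between genes and in one alternative. Counts were rounded, filtered with filterByExpr, scaled by TMM and tested with edgeR 4.0.16 (robust quasi-likelihood F test, two-sided, antibody as the term, Benjamini-Hochberg over 12234 genes, threshold 0.05). SEs are the unshrunk log2 fold change over the square root of F. TMM factors were 0.558 and 0.673 for LARP7 and 1.85 and 1.44 for IgG, so folds depend on the scaling. Symbols come from the files, biotypes, coordinates and synonyms from RefSeq GRCm38.p6. The script was tested on simulated data with genes raised and lowered in equal number. That simulation held no shift in composition like that of these libraries, so it does not bear on the scaling. Members, gene lists and tests were chosen with earlier results of these data known. Values per library are given for each member called and for the 10 with the most counts; other members are given by fold change, except that counts are also printed for Lyzl4, Acr, Dcst1, Izumo1, Fam170b, Spaca7 and Tmem95, chosen after their values were seen. Alternatives were library totals, DESeq2 1.42.0, no filter, limma 3.58.1 on log2(TPM + 1), a replicate block and leaving out each library.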

Additional observations from a re-analysis of the deposited data

How the results depend on the processing

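With DESeq2, 11 members were lower and 1 higher, and 10 of the 18 lower calls were kept. There 3 members had no adjusted p, among them 1 of the 18, Spam1. The other calls not kept were those of Eqtn, Spaca3, Hyal5, Dcst2, Zpbp, Actl7a and Zpbp2. With limma on log2(TPM + 1), 0 members were higher and 0 lower after adjustment (smallest adjusted p = 0.0502). The median there was -0.90, and 0 of all 12234 genes were called. With library totals the counts were 0 higher and 35 lower and the median was -2.98. With protein-coding totals, an alternative added after seeing the data, 21 were lower and 1 higher (12.7% and 12.6% of all genes), with a median of -1.70. Of the 3400 protein-coding genes of like count and length, 688 were then lower and 209 higher. Without a filter 18 were lower and 1 higher. With the replicate number as a block 20 were lower and 1 higher (11.5% and 17.1% of all genes; median -1.56), and all 18 calls were kept; same-numbered libraries deviated together with r = 0.20 over genes, and with 2 numbers this does not show a pairing. Leaving out 1 library each gave 1 to 14 lower, 0 to 1 higher and medians of -1.87 to -1.32. The share of counts was 0.0163% to 0.0201% for LARP7 and 0.0952% to 0.148% for IgG in single libraries, and as a share of TPM 0.000402% and 0.00658%. Izumo4 turned to -0.45 with limma on TPM. Actl9 turned to -1.30 with library totals, -0.99 with limma and -0.10 with protein-coding totals. Relative to TMM, the median of all genes lay lower by 1.42 with library totals and by 0.21 with protein-coding totals. Why the folds turned with limma was not tested. Members with few counts, such as Lyzl4 and Spaca7, have SEs above 0.90 on the log2 scale, which limits what can be called.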
